A study of Mus musculus with 6 samples.

Results

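The simple and basal keratins examined here are 8 genes, chosen by symbol from the 23420 genes of the table for lungs at E11.5dpc (embryonic days post coitus). They are the simple-epithelial keratins Krt7, Krt8, Krt18 and Krt19 and the keratins Krt5, Krt14, Krt15 and Krt17 of basal and stratified epithelia. RNA was measured by sequencing in 3 pools of mutant lungs (Raptorf/f; ShhCre/+) and 3 pools of littermate control lungs (Raptorf/+; ShhCre/+), all from mouse embryos at E11.5dpc. Each pool held 3 or 4 whole lungs. Raptor (Rptor) is a component of mTORC1, the kinase complex that couples nutrients to cell growth. The Shh Cre recombinase is made broadly in the lung epithelium, so the floxed gene is targeted there and not in the mesenchyme, mesothelium or vessels that share the pool. The controls also carried Shh Cre and 1 floxed copy of the gene. A supplementary figure of the study labels the controls of this stage ShhCre/+ alone. The comparison asks how the RNA of the lung differs when mTORC1 is lost from the epithelium. The study's methods say that mutants of several litters were combined for statistics, but not which litters went into which pool, so the p-values measure the spread between these pools, which may be partly technical.

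Keratins are the intermediate filament proteins of epithelial cells. A filament is an obligate heteropolymer of a type I (acidic) and a type II (basic) keratin, so a cell that makes a filament makes at least 1 of each. Krt8 (type II) and Krt18 (type I) form the first keratin filaments of the embryo and of simple epithelia, the lung bud included. Krt7 (type II) and Krt19 (type I) are further simple-epithelial keratins, which ducts, airways and mesothelium also make. Krt5 (type II) pairs with Krt14 and Krt15 (type I) in basal cells, the stem cells of the trachea and of stratified epithelia, and Krt17 (type I) is known from basal and stressed epithelium.

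All values are normalized counts, each gene's reads scaled by its library's size factor. The libraries held 20197642 to 21276090 reads on genes, recovered from the deposited values. Nkx2-1, the transcription factor that defines the lung epithelium, and Epcam, a surface protein of epithelial cells, were present in all 6 pools, between 1977 and 2686 and between 1420 and 2184. Rptor itself had 2199 ± 77.0 (SD, n = 3) in the controls and 2103 ± 69.1 in the mutants (adjusted p = 0.584, limma). Its value in whole lung, where only the epithelium is targeted, gives no check of the labels.

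Each gene was compared with limma on log2(normalized count + 1), and p-values were adjusted over all 17168 genes that reached 1 normalized count in 3 or more pools. A fold change below is the difference of the group means on this log2 scale, mutant minus control, and the call threshold was an adjusted p of 0.05. All 8 keratins passed the filter on low values.

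The RNAs of the 2 partner keratins Krt8 and Krt18 fell in the mutant lungs, while Krt7 kept overlapping values and Krt19 lay higher in every mutant pool without passing the threshold. The 4 basal keratins were low in all pools and none passed. Thus 2 of the 8 keratins were called, both lower, where 0.501% of all tested genes were called in either direction and 0.315% were called lower. Mutant and control pools did not overlap for 4 keratins. They were lower in the mutants for Krt8 and Krt18, as they were for 10.5% of all tested genes, and higher for Krt19 and Krt15, as they were for 9.77%. For Krt15 this rests on the size factors, since control pool 1 and mutant pool 1 held the same 19 reads. The median log2 fold change of the 8 keratins was 0.34, beside 0.00 over all tested genes, since 5 of the 8 lay above 0. These 5 were Krt19 and the 4 low basal keratins, none of them called, so the median does not describe the keratin RNA as a whole.

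**Figure D1:**
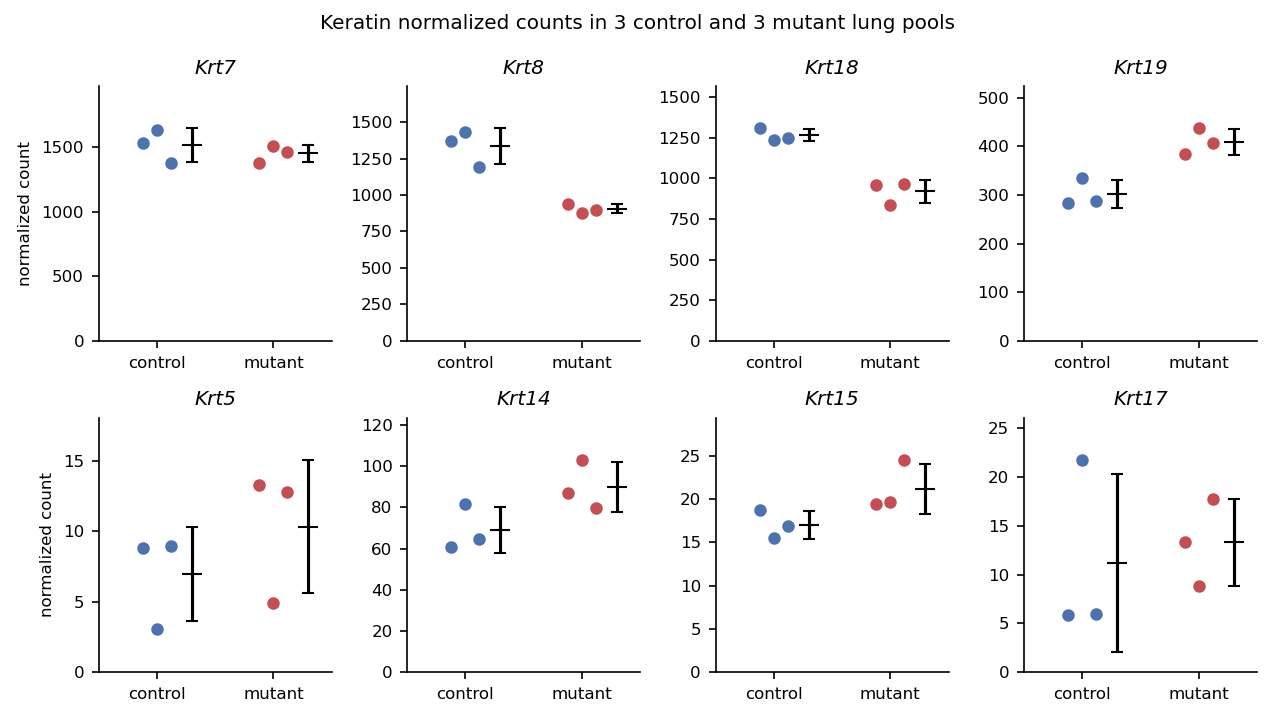
Normalized counts (vertical axes, from 0, with a scale for each gene) of the 8 keratins in the 3 control (blue) and 3 mutant (red) lung pools, with the mean and SD of each group in black. Krt8 and Krt18 are lower and Krt19 and (narrowly) Krt15 higher in every mutant pool than in any control pool, and the other 4 genes overlap.

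Krt8, the type II partner of the pair, had normalized counts of 1371, 1432 and 1195 in the control pools and 939, 878 and 899 in the mutant pools. Every mutant pool lay below every control pool, and the mutant pools lay close together. The means were 1333 ± 123 and 905 ± 31.2 (SD, n = 3 each), a log2 fold change of -0.55 (SE 0.07, 95% confidence interval -0.71 to -0.40, adjusted p = 0.0128, limma). In these whole-lung pools, fewer epithelial cells and less RNA in each epithelial cell cannot be told apart.

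Krt18, the type I partner, had 1306, 1235 and 1250 in the control pools and 960, 837 and 963 in the mutant pools. Here too the groups were separate, with mutant pool 2 the lowest for both genes. The means were 1264 ± 37.7 and 920 ± 71.8, a log2 fold change of -0.46 (SE 0.06, interval -0.60 to -0.32, adjusted p = 0.0263, limma). By p, Krt8 and Krt18 ranked 15 and 18 among all tested genes.

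Count models on the recovered reads also called both genes. The adjusted p from edgeR was 0.0155 for Krt8 and 0.0262 for Krt18, in a test that called 0.539% of its genes, and DESeq2 gave 3.21e-08 and 6.88e-06, with 1.93% of its genes called. Leaving out 1 pool changed the calls. With limma, both were lost when control pool 1 was left out (adjusted p = 0.192 for Krt8 and 0.231 for Krt18), and likewise without mutant pool 1 (0.0703 and 0.0779), mutant pool 2 (0.0707 and 0.054) or mutant pool 3 (0.116 and 0.112). Both passed without control pool 2 (0.0216 and 0.027) and without control pool 3 (0.000117 and 0.0034). Their fold changes stayed between -0.63 and -0.50 and between -0.49 and -0.39 in these 6 fits. Without the variance trend in limma the adjusted p was 0.209 and 0.21.

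Krt8 and Krt18 are neighbours. On mouse chromosome 15 (GRCm38, GENCODE M21) Krt8 lies at chr15:101996698-102004482 on the minus strand and Krt18 at chr15:102028180-102032027 on the plus strand, with 23697 bases between them. Krt18 sits beside the type II keratin genes, whereas the other type I genes described here are on chromosome 11. A lincRNA (Gm36026) overlaps exons of Krt8 on the other strand. An antisense gene (Gm671) overlaps Krt7 in the same way and a miRNA gene (Gm44323) overlaps Krt5. None of the 3 is listed in the table, and whether reads were counted by strand is not given in the sources used here.

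The start regions of Krt8 and Krt18 are printed because these 2 genes moved together, and that of Krt7 because it is the simple keratin of the same chromosome whose values overlapped. The windows run from 250 bases before to 20 bases after the RefSeq start (GRCm38.p6), 5′ to 3′ on the strand of the gene. They cover chr15:102004323-102004592 (minus strand), chr15:102027966-102028235 (plus strand) and chr15:101412153-101412422 (plus strand), and capitals mark every match on either strand to the motif TATAAA known from core promoters, the Sp1 box GGGCGG, the AP-1 site TGANTCA, the E-box CACCTG and the FOX site TGTTTAC.
Krt8: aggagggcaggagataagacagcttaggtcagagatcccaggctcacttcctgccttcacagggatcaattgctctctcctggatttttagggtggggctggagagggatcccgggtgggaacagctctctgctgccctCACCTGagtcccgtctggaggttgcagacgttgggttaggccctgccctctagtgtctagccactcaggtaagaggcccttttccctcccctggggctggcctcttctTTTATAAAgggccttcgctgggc
Krt18: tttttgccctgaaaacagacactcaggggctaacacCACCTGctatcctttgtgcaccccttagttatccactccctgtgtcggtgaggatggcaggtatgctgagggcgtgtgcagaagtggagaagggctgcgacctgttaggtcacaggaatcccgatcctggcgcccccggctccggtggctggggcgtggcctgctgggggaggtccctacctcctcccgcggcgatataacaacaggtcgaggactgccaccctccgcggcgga
Krt7: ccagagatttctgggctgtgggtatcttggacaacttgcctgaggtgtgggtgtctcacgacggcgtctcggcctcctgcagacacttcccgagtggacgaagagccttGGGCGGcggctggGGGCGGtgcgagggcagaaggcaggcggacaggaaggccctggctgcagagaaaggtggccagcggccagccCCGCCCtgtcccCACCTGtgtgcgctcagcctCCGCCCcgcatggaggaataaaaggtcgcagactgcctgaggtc
RefSeq windows matched 5 of the 8 keratins, namely Krt7, Krt8, Krt18, Krt5 and Krt14. The E-box letters CACCTG stood in 4 of these 5 windows (Krt8, Krt18, Krt7 and Krt5), and in 18.4% of the 32851 windows of the same length. The Sp1 letters GGGCGG stood in the Krt7 window at 4 places and in no other keratin window, beside 34.1% of all windows. TATAAA was found at the RefSeq start of Krt8, where its matches on the 2 strands overlap, and in 12.9% of all windows. The RefSeq starts are not the GENCODE gene ends. In GENCODE the Krt8 gene reaches to chr15:102004482, before its RefSeq start but inside its window. The Krt7 gene begins at chr15:101411043, before its whole window, and the Krt14 gene reaches to chr11:100207548, beyond its window (chr11:100206011-100206280, minus strand). The windows of Krt7 and Krt14 may thus miss other starts of these genes. Neither TGANTCA (7.23% of all windows) nor TGTTTAC (3.38%) occurred in the 5. The fold changes of the 4 genes with CACCTG ranged from -0.55 for Krt8 to 0.51 for Krt5, so these letters did not separate the keratins that fell from the others.

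Krt7, the second type II keratin of simple epithelia, had 1533, 1633 and 1376 in the controls and 1380, 1511 and 1462 in the mutants. The groups overlapped, with control pool 3 the lowest of all 6. The means were 1514 ± 130 and 1451 ± 66.0, a log2 fold change of -0.06 (SE 0.07, interval -0.21 to 0.09, adjusted p = 0.75, limma).

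Krt19, a type I keratin without the tail domain of the others, had 283, 335 and 287 in the controls and 384, 437 and 407 in the mutants. Every mutant pool lay above every control pool. The means were 302 ± 28.8 and 410 ± 26.6, a log2 fold change of 0.44 (SE 0.09, interval 0.24 to 0.65). The unadjusted p was 0.00065 and the adjusted p 0.0734 in limma, and the adjusted p was 0.0761 in edgeR, so both missed the threshold, whereas DESeq2 gave 0.0248. In limma it passed without control pool 2 (0.038) and without control pool 3 (0.036), and in no other fit with 1 pool left out.

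Ratios between keratins within a pool, from which the size factor cancels, were separate between the groups for some pairs. The log2 ratio of Krt8 to Krt18 was 0.07, 0.21 and -0.07 in the controls and -0.03, 0.07 and -0.10 in the mutants. These values overlapped, with a mean difference of -0.09. The log2 ratio of Krt7 to Krt8, the 2 type II keratins, was 0.16, 0.19 and 0.20 in the controls and 0.56, 0.78 and 0.70 in the mutants, a mean difference of 0.50.

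For the type I keratins, the log2 ratio of Krt19 to Krt18 was -2.21, -1.88 and -2.12 in the controls and -1.32, -0.94 and -1.24 in the mutants. The mean difference was 0.90, and the groups were separate. That of Krt19 to Krt7 was -2.44, -2.29 and -2.26 against -1.85, -1.79 and -1.84, a mean difference of 0.50. That of Krt19 to Krt8 was -2.14 ± 0.12 (SD, n = 3) in the controls and -1.15 ± 0.14 in the mutants, also separate and the widest difference of these 5 ratios. For each of the 4 ratios that were separate between the groups the two-sided exact permutation test gave p = 0.1, which is as low as a design of 3 and 3 pools can reach. Krt19 was higher and Krt8 and Krt18 were lower in every mutant pool. The ratios of Krt19 to Krt18 and to Krt8 therefore had to be separate, and their p was fixed by this. The ratios also share genes, so they are not independent of each other. For Krt8 to Krt18 the exact test gave p = 0.4.

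**Figure D2:**
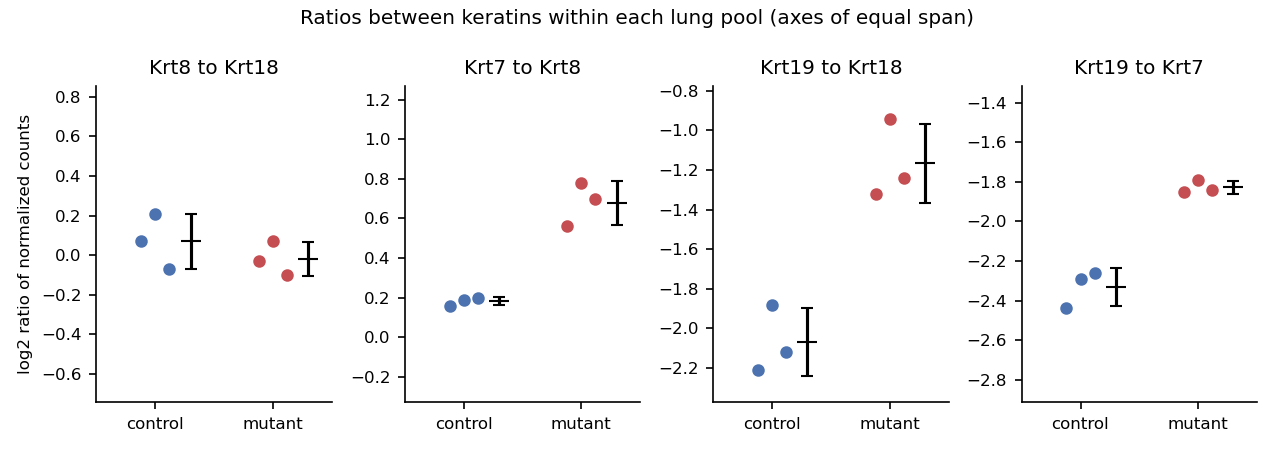
Log2 ratios of normalized counts between pairs of keratins in each of 3 control (blue) and 3 mutant (red) lung pools, with the mean and SD in black. The Krt8 to Krt18 ratio overlaps between the groups, and the other 3 ratios plotted are higher in every mutant pool by 0.50 to 0.90 on average.

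Levels can be compared between genes only per length of transcript. Per kilobase of the principal transcript, the normalized counts of the control pools were highest for Krt18 (879 ± 26.3), followed by Krt8 (681 ± 62.9), Krt7 (370 ± 31.7), Krt19 (191 ± 18.2) and Krt14 (40.7 ± 6.51, SD, n = 3 each). Krt15 (9.94 in the median pool), Krt17 (7.21 ± 5.87) and Krt5 (3.17 ± 1.52) came last. The spread of Krt17 covered both neighbours, and its order among them cannot be given.

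In the mutant pools the order was the same, at 640 ± 50.0 for Krt18, 462 ± 15.9 for Krt8, 354 ± 16.1 for Krt7, 260 ± 16.9 for Krt19 and 52.9 ± 7.06 for Krt14. The steps from Krt8 to Krt7 and from Krt7 to Krt19 were smaller than in the controls. The place of Krt7 depends on the length taken. With all annotated exons of each gene together, the level of Krt7 was 215 in the controls and 206 in the mutants, and that of Krt19 was 163 and 221, so that Krt19 lay above Krt7 in the mutants.

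As a share of the 8 keratins per kilobase, Krt8 went from 31.1% ± 1.28 to 25.7% ± 0.717 and Krt18 from 40.4% ± 2.35 to 35.6% ± 2.15. Krt19 went from 8.77% ± 0.630 to 14.5% ± 1.18 and Krt7 from 16.9% ± 0.595 to 19.8% ± 1.17. The 4 basal keratins together made up 2.79% ± 0.369 in the controls and 4.38% ± 0.156 in the mutants. These shares add up to the whole, so a lower share of Krt8 and Krt18 raises the others. The summed normalized counts of the 4 basal keratins, which are not shares, were 94.3, 122 and 96.4 in the controls and 133, 136 and 134 in the mutants. They were higher in every mutant pool, mostly through Krt14. Those of the 4 simple keratins were 4494, 4634 and 4108 against 3664, 3663 and 3732, lower in every mutant pool. The log2 ratio of the summed type II to the summed type I keratins per kilobase was -0.08, -0.01 and -0.22 in the controls. It was -0.26, -0.19 and -0.28 in the mutants, so the groups overlapped, with a mean difference of -0.14.

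**Figure D3:**
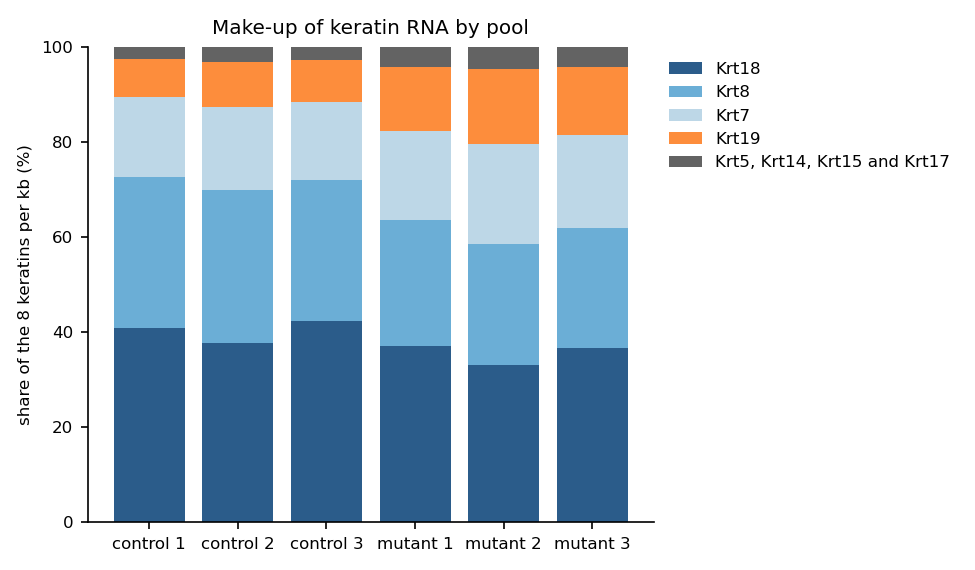
Share (%) of each simple keratin and of the 4 basal keratins together in the sum of the 8 keratins per kilobase of principal transcript, for each of the 3 control and 3 mutant pools. The Krt19 part is wider in the mutant pools, with a mean of 14.5% against 8.77%, and Krt18 stays the largest part in every pool.

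Of the basal keratins, only Krt14, which pairs with Krt5 in basal cells, was above 30 normalized counts. It had 60.9, 81.6 and 64.6 in the controls and 86.8, 103 and 79.5 in the mutants. The groups overlapped through control pool 2 and mutant pool 3. The log2 fold change was 0.38 (SE 0.17, interval 0.00 to 0.76) with an unadjusted p of 0.0518 and an adjusted p of 0.372 (limma).

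Krt15, a type I keratin of basal cells, had 18.7, 15.5 and 16.9 in the controls and 19.4, 19.6 and 24.5 in the mutants. The groups did not overlap in normalized counts, but the lowest mutant pool stood close to the highest control pool. Control pool 1 and mutant pool 1 held the same 19 reads, so only the size factors set them apart. The log2 fold change was 0.30 (SE 0.25, adjusted p = 0.655, limma).

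Krt5 and Krt17 rested on few reads. The reads of Krt5, the type II keratin of basal cells, were 9, 3 and 9 in the controls and 13, 5 and 13 in the mutants. Those of Krt17 were 6, 21 and 6 in the controls and 13, 9 and 18 in the mutants. Both genes overlapped between the groups, and control pool 2 held the highest Krt17 and the lowest Krt5 of all 6 pools. Their log2 fold changes were 0.51 (interval -0.58 to 1.60, adjusted p = 0.7, limma) and 0.42 (interval -0.67 to 1.51, adjusted p = 0.755), so a rise of 2-fold lies within both intervals.

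Trp63, the transcription factor that defines basal cells, varied more between control pools than any of the basal keratins, at 35.4, 7.23 and 89.5 in the controls and 32.7, 9.80 and 30.4 in the mutants. The groups overlapped (log2 fold change -0.41, SE 0.75, adjusted p = 0.857, limma). Within each group Krt5, like Trp63, had its lowest value in pool 2, while its reads in pools 1 and 3 were equal. Krt14 had its highest value in pool 2 of both groups, where Trp63 was lowest. Krt15 was lowest in control pool 2 but not in mutant pool 2, and Krt17 was highest in control pool 2 and lowest in mutant pool 2.

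Of 9 tested genes of a basal cell list, none was called by limma, edgeR or DESeq2, and 1 had an unadjusted p under 0.05 in limma. This was Dlk2, at 6.40 ± 2.71 and 13.6 ± 2.81 (log2 fold change 1.02, adjusted p = 0.257). The list summed to between 6872 and 8960 in the controls and between 8504 and 8789 in the mutants, mostly through genes that other lung cells also make, such as Snai2 (2913 ± 846 and 3596 ± 327) and Bcam, a laminin receptor (2696 ± 218 and 2739 ± 69.1).

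Genes of squamous differentiation were low as well. Of 13 listed, 9 were tested and none was called by any of the 3 tools, with 1 at an unadjusted p under 0.05 in limma (Dsc3). Sprr1b, a cornified envelope protein, was at 0 in every pool. The sum of the list was 178 to 310 in the controls and 217 to 249 in the mutants.

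Beyond these 8 genes, 40 other keratin genes were listed, of which 15 were at 0 in every pool and 14 passed the filter. None of the 14 had an adjusted p under 0.05 in limma, edgeR or DESeq2 or an unadjusted p under 0.05 in limma, and the lowest adjusted p was 0.446. Their log2 fold changes were above 0 for 10 and below 0 for 4, with a median of 0.13. Only Krt10, the type I keratin of suprabasal epidermis, reached a mean of 100, at 136 ± 7.80 in the controls and 132 ± 14.4 in the mutants (log2 fold change -0.04, adjusted p = 0.916, limma). Krt20, of intestine and urothelium, had 21.8 ± 2.06 and 24.6 ± 4.56. Krt1, the partner of Krt10, had 18.1 ± 4.89 and 23.2 ± 6.54. Krt23 had 10.8, 13.4 and 10.9 in the controls and 19.4, 17.6 and 14.7 in the mutants, without overlap (adjusted p = 0.446).

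Other epithelial genes were lower too. Of 20 genes of the lung epithelium that are not keratins, 4 were called by limma, all lower, and 18 had an unadjusted p under 0.05, again all lower. The median log2 fold change of the 20 was -0.47, between those of Krt8 and Krt18 and below 0.00 for all tested genes. Cdh1, the E-cadherin of epithelial junctions, fell by 0.97 on the log2 scale, with 1439 ± 131 in the controls and 736 ± 97.7 in the mutants (adjusted p = 0.00728, limma). The tight junction protein Cldn6 had 3088 ± 333 in the controls and 1880 ± 180 in the mutants and fell by 0.71 on the log2 scale (adjusted p = 0.0119), and the protease inhibitor Spint1 by 0.61, with 395 ± 36.7 and 259 ± 17.2 (adjusted p = 0.0358). Other defining genes did not pass, with Epcam at 1874 ± 312 and 1545 ± 117 (log2 fold change -0.27, adjusted p = 0.3), Nkx2-1 at 2433 ± 330 and 2029 ± 45.7 (log2 fold change -0.25, adjusted p = 0.218) and Shh at 631 ± 12.2 and 617 ± 12.5 (log2 fold change -0.03, adjusted p = 0.854). The 20 fold changes thus ranged from -0.97 for Cdh1 to -0.03 for Shh.

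Set against the mean log2 level of these 20 genes in the same pool, Krt8 stood at 1.12, 1.06 and 1.10 in the controls and 0.99, 1.04 and 0.94 in the mutants. The mean difference was -0.11 (interval -0.33 to 0.12), and the values were lower in each mutant pool. Krt18 stood at 1.05, 0.85 and 1.17 against 1.02, 0.97 and 1.04, a difference of -0.01 (interval -0.25 to 0.22). On this scale neither gene passed the test (adjusted p = 0.395 and 0.934, limma). The test shares variance between genes, and its SE for Krt8 was 0.11, beside SDs of 0.03 and 0.05 among the Krt8 values themselves. It thus does not decide whether Krt8 fell slightly relative to these genes.

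Krt7 stood at 1.28, 1.25 and 1.30 in the controls and at 1.55, 1.82 and 1.64 in the mutants, a difference of 0.39 that turns the sign of its fold change (adjusted p = 0.00373). Krt19 stood at -1.15, -1.03 and -0.95 against -0.30, 0.03 and -0.20, a difference of 0.89 (adjusted p = 0.000136). Krt14 (0.83, adjusted p = 0.00198) and Krt15 (0.74, adjusted p = 0.0396) were also higher relative to the epithelial genes. The scaling adds 0.45 to the log2 fold change of every gene, and with it 66.8% of all tested genes were called, so the 4 calls among the 8 keratins are no more than the share of all genes gives.

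**Figure D4:**
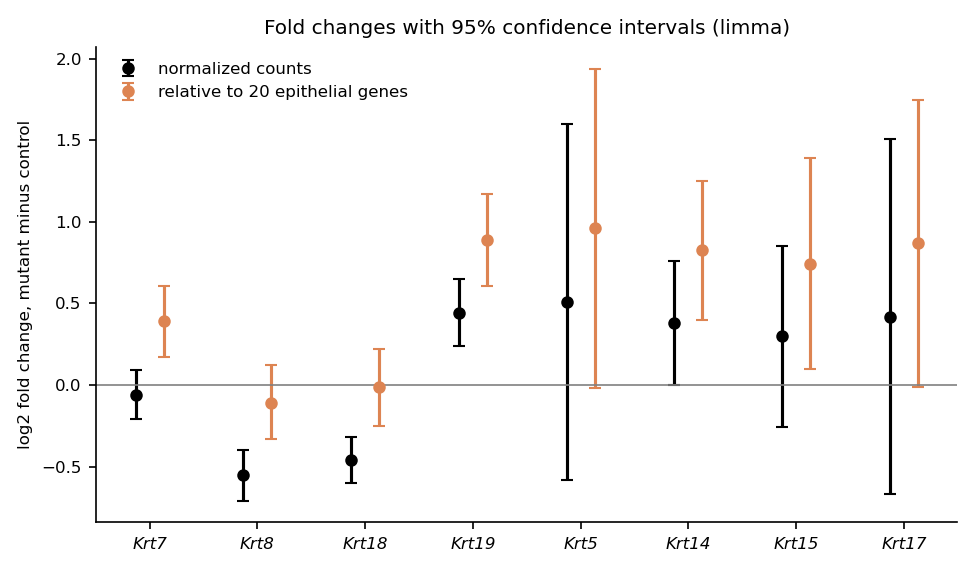
Log2 fold changes (mutant minus control, points) with 95% confidence intervals (bars) of the 8 keratins from limma, on the normalized counts (black) and after each pool was scaled to its 20 epithelial genes (orange). Krt8 and Krt18 lie below 0 on the normalized counts and their intervals include 0 after the scaling, while the Krt19 interval lies above 0 on both.

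Mesothelium, the outer lining of the lung, also makes simple keratins and is not targeted by Shh Cre. Of 11 tested mesothelial genes, 1 was called by limma, higher, and 5 had an unadjusted p under 0.05, all higher, with a median log2 fold change of 0.19. Wt1, a transcription factor of mesothelium, rose by 0.31 on the log2 scale, with 756 ± 10.9 in the controls and 939 ± 46.6 in the mutants (adjusted p = 0.0496, limma). Upk3b, a surface protein of mesothelial cells, had 2079 ± 201 and 2388 ± 102 (adjusted p = 0.219), and Msln, a marker of mature mesothelium, was near 0 at 4.35 ± 1.52 and 2.66 ± 0.604. The summed level of the list was 11612 to 12051 in the controls and 13012 to 13358 in the mutants. Aldh1a2 was its largest part (3809 ± 96.2 and 4263 ± 124), and Tcf21 (1497 ± 33.1 and 1710 ± 70.8) stands in the mesenchyme list as well. The log2 fold changes were above 0 for 9 genes and below 0 for 2, with Upk1b and Pdpn at 0.04 and Cdh3 at -0.04. The sum of the list, like Krt19, was higher in every mutant pool, as were the sums of the mesenchyme, endothelium and other intermediate filament lists. The part of the mesothelial cells in the Krt19 values was not tested.

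Genes of the other lung cell types were counted in the same way. All 12 mesenchyme genes had a log2 fold change above 0, and 4 of them rose by limma (median 0.20, sums of 95958 to 102201 in the controls and 116907 to 124802 in the mutants). Of 10 endothelial genes none was called by limma or edgeR and 1 (Tie1) by DESeq2, with 7 higher at an unadjusted p under 0.05 in limma and a median of 0.19. The sums were 13907 to 15826 and 16240 to 16829. The 10 genes of heart muscle summed to 1558 to 1700 in the controls and to less in every mutant pool, 1312 to 1370 (median log2 fold change -0.24, 0 called by limma or edgeR, 2 by DESeq2, 3 lower at an unadjusted p under 0.05). The 8 tested blood genes had none called by any tool and none at an unadjusted p under 0.05, and their sums overlapped. The part of these shifts in the keratin values was not tested.

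Keratin filaments are anchored at desmosomes and hemidesmosomes and cross-linked by plakins. Of 22 such attachment genes, none was called by limma, edgeR or DESeq2, while 2 higher and 5 lower had an unadjusted p under 0.05 in limma, and the median log2 fold change was -0.06. The desmosomal plakophilin Pkp2 had 217, 179 and 165 in the controls and 145, 137 and 124 in the mutants, without overlap (log2 fold change -0.46, SE 0.13, adjusted p = 0.164). Pkp3 had 82.5, 99.2 and 103 against 75.6, 57.8 and 57.9, also without overlap (log2 fold change -0.57, SE 0.17, adjusted p = 0.178). Desmoplakin (Dsp), which links keratin to the desmosome, had 1551 ± 147 and 1470 ± 67.0 (log2 fold change -0.07, adjusted p = 0.681), and the cross-linker plectin (Plec) 1727 ± 104 and 1976 ± 113 (log2 fold change 0.19, adjusted p = 0.188).

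Intermediate filament genes other than keratins, with the lamin genes Lmna, Lmnb1 and Lmnb2 included, showed positive fold changes for 12 of 15 tested genes. The median was 0.17. None was called by limma or edgeR, and 3 higher (Vim, Des and Lmna) and 0 lower had an unadjusted p under 0.05 in limma. Vim, the vimentin of mesenchymal cells, had 14809, 15187 and 14123 in the controls and 16937, 16241 and 16529 in the mutants, without overlap (log2 fold change 0.17, adjusted p = 0.105 in limma), and it was the only one called by DESeq2. Des, the desmin of muscle, had 954 ± 28.7 and 1096 ± 28.0 (adjusted p = 0.133). Of the 5 transcription factor genes of the branching lung, none was called by limma or edgeR, 3 had an unadjusted p under 0.05, all lower, and 1 was called by DESeq2. It was Sox2, a factor of the conducting airway, with 462, 423 and 553 in the controls and 390, 304 and 341 in the mutants (log2 fold change -0.47, adjusted p = 0.124 in limma).

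**Figure D5:**
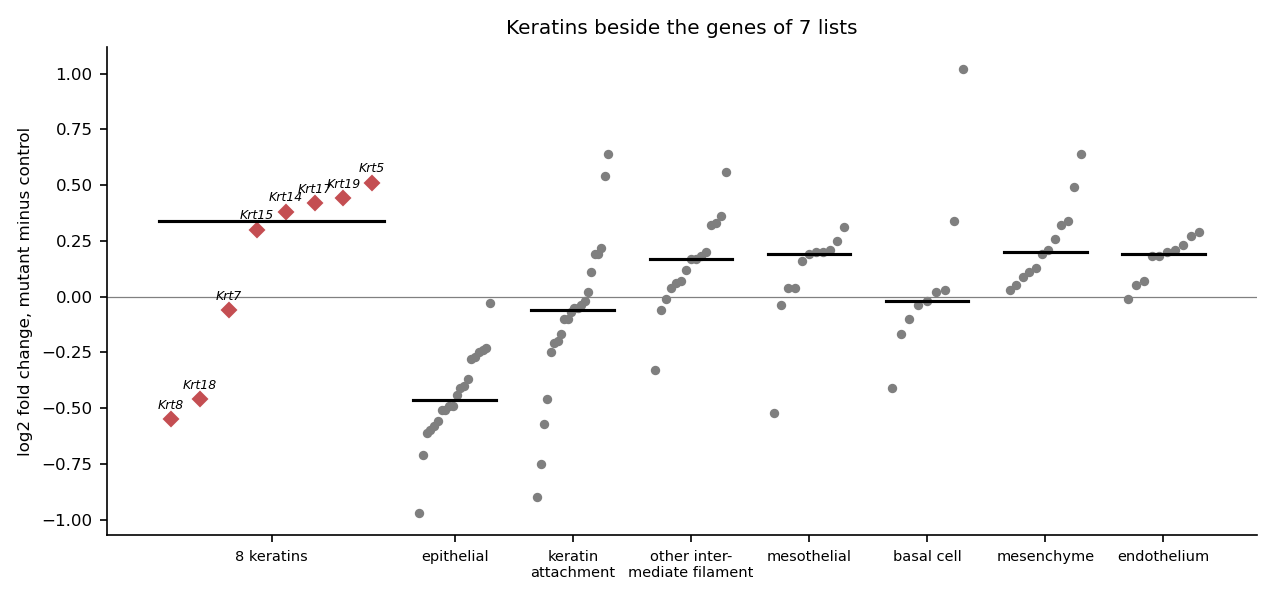
Log2 fold changes (mutant minus control) of the 8 keratins (red diamonds, named) and of the tested genes of 7 lists (grey points, sorted), with the median of each set as a black line. Krt8 and Krt18 lie on either side of the epithelial median of -0.47, and Krt7, Krt19 and the basal keratins lie above it.

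The genes most like Krt8 and Krt18 were sought among 11453 non-keratin genes with a mean of at least 100, by the root mean square difference of their centred log2 values from the mean of the pair over the 6 pools. Krt8 and Krt18 themselves differed by 0.105 on this measure. The 5 nearest genes were Serpinb9 (0.039), a serine protease inhibitor, Ly6h (0.049), Epn3 (0.051), an epsin of clathrin-mediated uptake, Plch1 (0.053), a phospholipase C, and Sntb1 (0.060), a syntrophin. Serpinb9 had 516, 507 and 490 in the controls and 384, 321 and 361 in the mutants. Nkx2-1 (0.160) and Epcam (0.161) ranked 217 and 226 on the measure, and Cdh1 (0.245) ranked 3164, since its fold change was larger. The likeness is a description over 6 pools in 2 groups and mostly reads the size of the difference between them. Krt7 (0.241) and Krt19 (0.490) lay farther from the pair than Nkx2-1 or Epcam.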

How the data were processed

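RNA of 3 control and 3 mutant pools of lungs at E11.5dpc was analysed from 1 table. The authors deposited normalized counts, a signal in which each gene's reads were scaled by its library's size factor. The submitters' processing notes name Trim Galore, HISAT2, featureCounts, DESeq2 and mm10, without versions. The authors' own comparison in the deposited table (log2 fold changes with standard errors, a test statistic, which is a score, and p-values) was not used. In each library 100.0% of the values were whole multiples of the value of 1 read (tolerance 0.01 reads), and these reads entered the count tests, although in control pool 3 that value (0.994) is near 1.

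The main test was limma 3.58.1 (R 4.3.3, lmFit and eBayes with trend) on log2(normalized count + 1), for genes that reached 1 in 3 or more pools, and p-values were adjusted by Benjamini-Hochberg. A pseudocount of 1 understates changes of low genes. Alternatives were edgeR 4.0.16 (quasi-likelihood, 79 of 14670 genes called), DESeq2 1.42.0, no variance trend, upper-quartile scaling, no filter, at least 10 in every library, a pseudocount of 0.1, a replicate block, scaling to 20 epithelial genes, and each pool left out. Lengths per kilobase were those of the APPRIS principal transcript in GENCODE M21, and lengths of all exons were added as an alternative after seeing the data. Scripts were tested on simulated data.

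The keratins and gene lists were chosen with earlier results of these data known. Named genes were the 8 keratins, the 4 other keratins of highest mean, from each list up to 3 genes with the lowest adjusted p under 0.05 or otherwise the 2 with the lowest p, defining genes of cell types, Rptor, Shh and the 5 genes nearest to Krt8 and Krt18. Bcam, Dsp, Plec and Sprr1b were named after their values were seen. Some genes stand in more than 1 list (Nkx2-1, Dsc3, Itga6, Itgb4 and Tcf21).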

Additional observations from a re-analysis of the deposited data

How the results depend on the processing

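The comparison called 86 genes and 2 of the 8 keratins. Both counts were within 1.5 times of these under upper-quartile scaling, both other filters, a pseudocount of 0.1, the replicate block and edgeR. Without the variance trend limma called 8 genes and 0 keratins. DESeq2 called 277 genes. Scaling to the epithelial genes called 11472 genes, 11411 of them higher, and 4 keratins (Krt7, Krt19, Krt14 and Krt15, not Krt8 or Krt18), left 1 keratin lower without overlap, and turned the sign of Krt7 to 0.39. Leaving out 1 pool at a time gave 1 to 468 called genes (1 without control pool 1 or mutant pool 3, 468 without control pool 3), 0 to 3 called keratins, and 2 to 3 keratins lower without overlap. No share over all genes is given for the counts without overlap under these settings, so they are not read as results. Groups of 2 and 3 pools also separate more readily than groups of 3 and 3. The cause of the change in calls was not tested. The log2 fold changes of Krt8 and Krt18 were near 0 under the scaling to epithelial genes (-0.11 and -0.01, adjusted p = 0.395 and 0.934, limma) and kept their sign in the other 14 alternatives. With the replicate number as a block 71 genes were called, Krt8 and Krt18 among them (adjusted p = 0.0111 and 0.0156, limma), and no call of a keratin changed. The same-numbered pools deviated together with correlations of -0.032, 0.199 and 0.077 over genes, so the numbers were not taken to pair the pools. With 3 pools a group and few reads for Krt5 and Krt17, depth and pool number limit what can be said of the basal keratins.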
